A study of Arabidopsis thaliana with 6 samples.

Results

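The transcripts described here are 227 of Arabidopsis thaliana whose level differed in one direction between the arrays numbered 2 and those numbered 1 in each of 3 genotypes. They were chosen by these values: every one of 6 intensities was at least 100, and the ratio of number 2 to number 1 was at least 1.5 in each of vip5, vip6 and WT, or at most the reciprocal of 1.5, rounded to 3 decimals, in each. Of 22746 probe sets without the 64 controls, 12530 had all 6 intensities at that level, and 59 of these were higher (0.471%) and 168 lower (1.34%) on number 2. LHCB4.1, LHCB4.2, RCA and 7 clock genes were to be left out. A probe set is paired with 4 of these 10 genes in the annotation used, none of the 4 met the ratios, and so nothing was removed by name. The others of the 10 could not be looked for. No gene is listed for 31 higher and 78 lower members, which may therefore include genes that were to be left out. Because the ratios chose the members, they are a description throughout and are not tested.

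The plants were 3 weeks old and were vip5 mutants, vip6 mutants or wild type, with 2 arrays of total RNA each. Neither the alleles, the ecotype nor the tissue is given by the labels, and nothing in them says what a number marks or whether arrays came from separate plantings. VIP5 and VIP6 are plant counterparts of subunits of the Paf1 complex, which travels with RNA polymerase II and helps to place histone marks on transcribed genes. Losing either is known to lower FLC, the repressor of flowering, and to bring flowering forward. With whole-plant or mixed RNA, fewer cells of a type and less RNA per cell cannot be told apart.

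Background on a few of the named members helps to place their values. Leaf starch is made in the light and broken down in the dark, and PWD, phosphoglucan water dikinase, adds phosphate to starch so that it can be degraded. SnRK1 is the plant kinase that responds to low energy, and AKINBETA1 encodes one of its beta subunits. BIC2, the common name of AT3G44450, encodes an inhibitor that keeps the blue-light receptors called cryptochromes from acting. COR15B encodes a chloroplast protein that accumulates in the cold.

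Among transcripts higher on number 2, AT2G44940, which encodes an AP2/ERF transcription factor, had intensities of 696, 720 and 662 in vip5, vip6 and WT on number 2, against 256, 329 and 283 in the same order on number 1. The cryptochrome inhibitor gene AT3G44450 read 932 in vip5, 794 in vip6 and 1480 in WT on number 2, and 314, 369 and 577 on number 1. For both genes every number 2 array lay above every number 1 array. AT1G76240 read 346, 372 and 1029 on number 2 in vip5, vip6 and WT, and 154, 151 and 384 on number 1. Its ratios of 2.25, 2.46 and 2.68 were the most even of these 3 genes, but the groups of arrays overlapped, since WT on number 1 was above both mutants on number 2. AT5G67390 read 455, 308 and 354 on number 2 in vip5, vip6 and WT, and 139, 136 and 173 on number 1.

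Among transcripts lower on number 2, AT1G30250 had intensities of 306, 287 and 377 in vip5, vip6 and WT on number 2, against 1645, 1769 and 2089 on number 1. Its ratio was 0.186 in vip5, 0.162 in vip6 and 0.18 in WT, a 5.68-fold lower geometric mean on number 2. AT4G30650, of the RCI2 family of small membrane proteins linked to cold and salt, read 689, 783 and 1083 on number 2 in vip5, vip6 and WT, and 3335, 3144 and 3303 on number 1. AT3G15630 read 650, 751 and 846 on number 2 in those genotypes, and 2509, 2239 and 3671 on number 1. In all 3 genes the highest number 2 array stood below the lowest number 1 array. The brightest of the 12 most extreme named genes on this side was AT3G15450, known as SEN5 and as a transcript that accumulates in darkness. It read 2795, 3136 and 3873 on number 2 in vip5, vip6 and WT, and 7769, 6900 and 11796 on number 1.

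**Figure D1:**
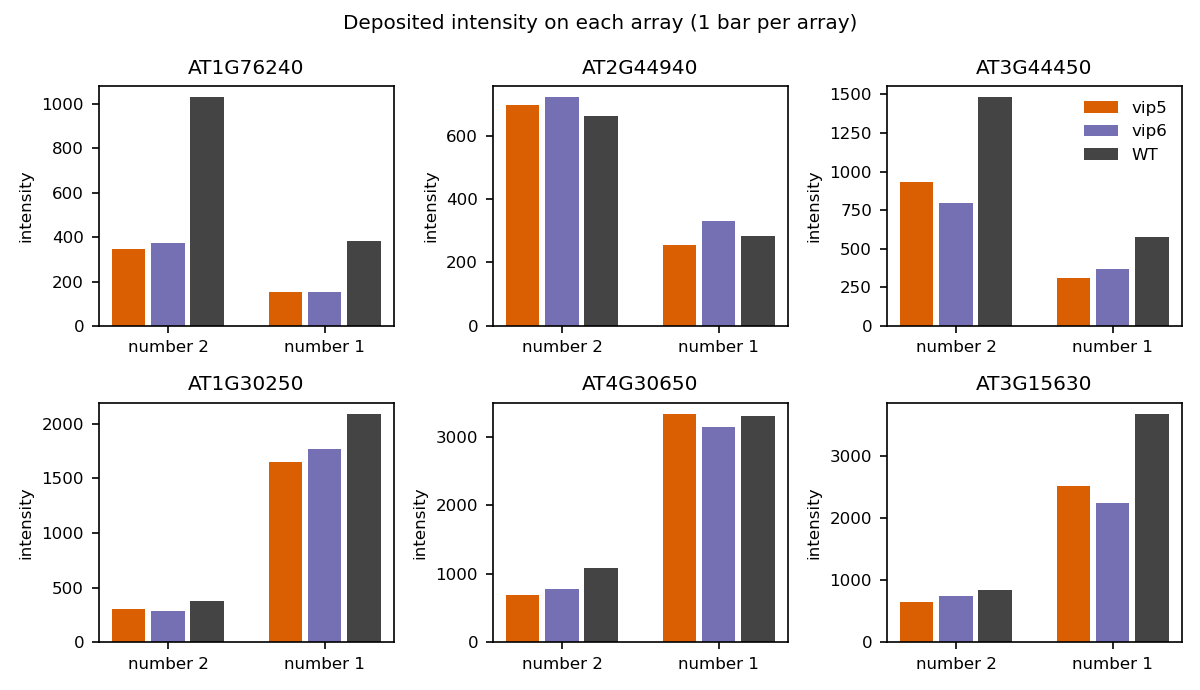
Deposited intensity of 3 members higher on number 2 (upper row) and 3 members lower on number 2 (lower row), 1 bar per array, with the 3 arrays of number 2 left of those of number 1. In AT1G30250 the number 2 bars reach 377 at most and the number 1 bars are 1645 or more, while for AT1G76240 the WT bar of number 1 (384) is above the mutant bars of number 2.

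Ratios of the lower members spread from 0.0687 to 0.6666 over the 3 genotypes, and those of the higher members from 1.5018 to 3.41. The median ratio of the 59 higher members was 1.89 in vip5, 1.85 in vip6 and 1.65 in WT, and that of the 168 lower members was 0.443, 0.476 and 0.518 in the same genotypes. Over all 12530 eligible transcripts the medians were 0.992 in vip5, 0.985 in vip6 and 1.01 in WT. A change of at least 2-fold in every genotype was found in 5 higher and 45 lower members. All number 2 arrays lay above all number 1 arrays in 50 of the 59, against 10.1% of eligible transcripts. They lay below them in 155 of the 168, against 11.2%. Both shares follow from the choice of members and nothing is read from them.

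For the other genes among the 12 most extreme named ones on the higher side, the weakest of the 3 ratios lay between 1.65 and 1.95. CYP71B26, a cytochrome P450, had ratios of 2.03 in vip5, 1.95 in vip6 and 2.29 in WT, and the subtilase gene AT5G45650, for a secreted protease, had 1.84, 1.98 and 2.09. IQD19, of a family that binds calmodulin, had 1.68, 1.75 and 1.77. The kinase genes AT1G33260 and AT3G26700, the heavy-metal domain gene AT5G50740 and AT5G67350 complete the 12. psbN, a plastid gene needed for the assembly of photosystem II, was the least even of the 12, with 3.41 in vip5 and 1.81 and 1.93 in vip6 and WT.

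Of the lower 12, AT2G21130, which encodes a cyclophilin (a protein that helps others fold), had ratios of 0.196 in vip5, 0.183 in vip6 and 0.395 in WT. It read 308, 275 and 275 on number 2 in vip5, vip6 and WT, and 1576, 1505 and 698 on number 1, so the genotypes were close on number 2 and apart on number 1. AT5G50450, a MYND zinc finger gene, had 0.186, 0.336 and 0.422. The kinase genes AT1G48210 and AT3G59350 had WT ratios of 0.404 and 0.424, AT3G47800, for a galactose mutarotase-like protein, had 0.458, and AT3G60420, of the phosphoglycerate mutase family, had 0.416. AT3G49790 and AT4G19390 complete the list, with WT ratios of 0.243 and 0.445.

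**Figure D2:**
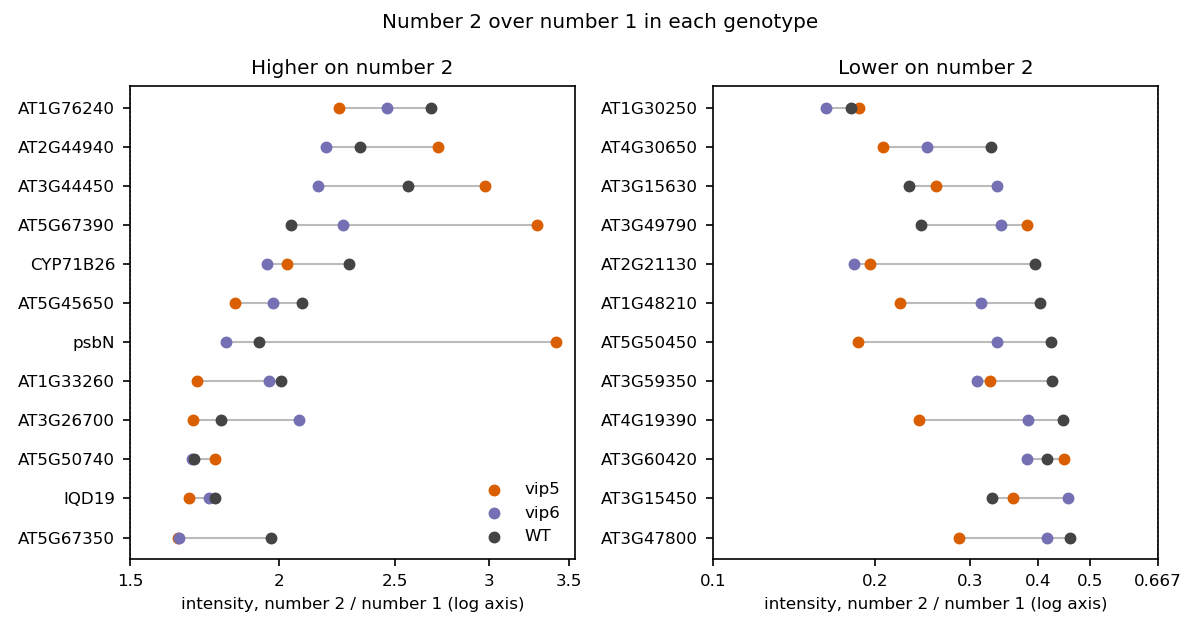
Ratio of number 2 to number 1 (log axis) for the 12 most extreme named members of each direction, with 1 point per genotype, which stands for 1 array over 1 array. psbN and AT5G50450 have vip5 points (3.41 and 0.186) away from their other points, while those of AT5G50740 and IQD19 almost coincide.

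The counts of such differences were not equal in the 3 genotypes. Each ratio is 1 array over 1 array, so a genotype cannot be told apart from its arrays. In a single genotype, a ratio of at least 1.5 was found for 874 transcripts in vip5 (6.98% of those eligible), 787 in vip6 (6.28%) and 656 in WT (5.24%). A ratio at or below the reciprocal was found for 1120 (8.94%), 941 (7.51%) and 846 (6.75%). The vip5 and vip6 pairs shared 368 transcripts on the higher side, and WT joined in 16.0% of them. They shared 483 on the lower side, and WT joined in 34.8%. As shares of the WT transcripts, the members were 8.99% on the higher and 19.9% on the lower side.

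Within the members, both mutants had a more extreme ratio than WT in 28 of 59 higher and 85 of 168 lower transcripts, and a less extreme one in 16 and 44. Both mutants went at least 1.5 times further than WT in 2 higher and 24 lower members. Of these 24, the 9 that name 1 gene are AT2G21130, AT3G62550, PWD, AT4G32340, AT4G30660, MAP1C, AT1G19960, AT3G22240 and AT5G51570, picked out after their values were seen. WT went at least 1.5 times further than both mutants in 0 higher and 4 lower members, none of which names a single gene here. These ratios chose the members, and each rests on 1 array over 1 array. The counts were not taken over all eligible transcripts, so nothing is read from them. AT3G22240 was the least even of the named members. It read 2947 in vip5, 3918 in vip6 and 16483 in WT on number 2, and 15441, 15078 and 24917 on number 1.

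**Figure D3:**
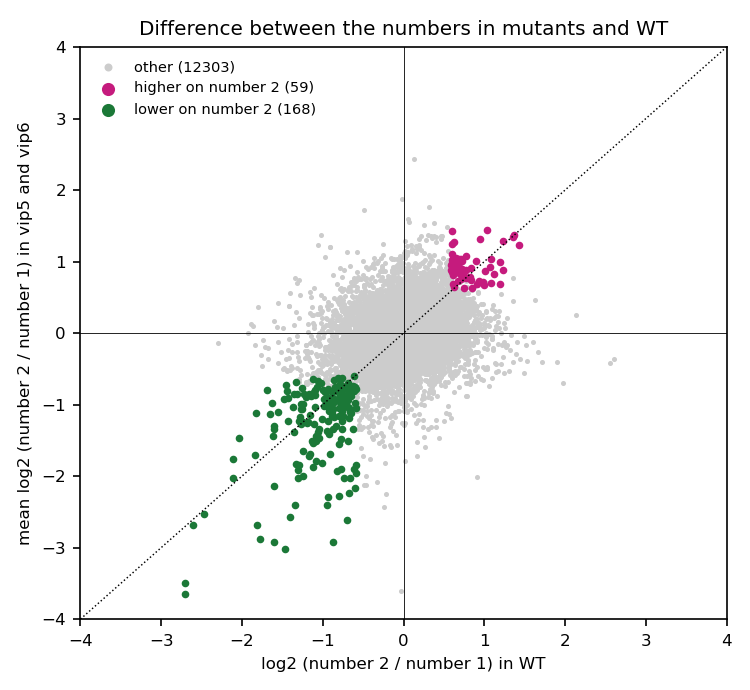
Mean log2 ratio of number 2 to number 1 in the 2 mutants (vertical) against the log2 ratio in WT (horizontal), with 1 point for each of 12530 eligible transcripts and the dotted line where both are equal. The 168 lower members reach further down than across, while the 59 higher members lie closer to the centre.

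The gene lists, which cover light, sugar, stress, hormone and metabolic genes, tissue markers and reference genes, hold few genes that are paired with a probe set, and they were drawn up with earlier results of these data known. Of 207 genes in 20 lists, 29 were named and 24 eligible, and 3 were members, all lower on number 2. PWD was 1 of 3 eligible genes of starch metabolism. It read 444, 454 and 711 on number 2 in vip5, vip6 and WT, and 2391, 2384 and 1375 on number 1, ratios of 0.186, 0.19 and 0.517. DPE1, which disproportionates the malto-oligosaccharides left by starch breakdown, was no member, because its ratio was 0.433 in vip5, 0.428 in vip6 and 1.14 in WT. AKINBETA1, the one eligible gene of the dark and sugar list, read 863, 1013 and 1119 on number 2, and 1971, 2070 and 2068 on number 1.

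COR15B was 1 of 4 eligible genes of cold and abscisic acid. It read 223, 271 and 814 in vip5, vip6 and WT on number 2, and 556, 697 and 1492 on number 1. Its related neighbour COR15A, with which its signal may be partly shared, had ratios of 1.54, 1.97 and 0.872 and was no member. COR47 had 0.987, 0.949 and 1.03, and LTI30 had 0.698, 0.689 and 0.886. Of 23 families searched for among the gene names, 18 had an eligible gene matched by name and 3 had such a member, PWD being matched as a kinase. Members of a family whose name did not match were missed, such as the AP2/ERF gene AT2G44940 and the kinase gene AT1G33260. The counts therefore do not cover whole families. Among all eligible transcripts 0.471% were higher and 1.34% lower members, and nothing is read from family counts this small. CYP71B26 was 1 of 8 eligible genes matched as cytochromes P450. EXLB1 and EXPA16, which encode an expansin-like protein and an expansin that loosens cell walls, were 2 of 10. The other eligible genes matched to these families by name were no members. EXLB1 read 163, 130 and 206 on number 2 in vip5, vip6 and WT, and 280, 287 and 374 on number 1.

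Other lower members with known roles, picked out after their values were seen, were THIC, needed for thiamine synthesis, and AT5G61590, the DEWAX repressor of cuticular wax genes. THIC read 2592, 3264 and 3877 on number 2 in vip5, vip6 and WT, and 7327, 7488 and 5987 on number 1. AT5G61590 read 1528, 1864 and 1900 on number 2, and 3490, 3555 and 4524 on number 1. AT3G62550, of the universal stress protein family, and ATL8, a RING-type ubiquitin ligase, belong to the same side. AT4G27450, related in sequence to AT3G15450, read 1712, 1880 and 1778 on number 2, and 3508, 3622 and 3277 on number 1, with every number 2 array near a common level. Higher on number 2 was AT5G26670, for a pectin acetylesterase that acts in the cell wall, with 758, 560 and 654 on number 2, and 365, 277 and 398 on number 1.

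Members lay on every nuclear chromosome. They made up between 1.34% (chromosome 5) and 2.0% (chromosome 4) of the eligible transcripts with a gene name. Of 67 eligible plastid genes, 2 were members, psbN and atpB, both higher, while the median ratio over the 67 was 1.04 in vip5, 1.09 in vip6 and 0.756 in WT. In 3 places both of a pair of neighbouring genes with 0 protein-coding genes between them were members, all lower: AT1G30250 and AT1G30260, AT2G25190 and AT2G25200, and AT4G30650 and AT4G30660. AT4G30660 read 723, 744 and 995 on number 2 in vip5, vip6 and WT, and 1966, 2365 and 1727 on number 1. AT4G30650 and AT4G30660 are of one family, so their signals may be partly shared. Neighbouring pairs were not counted over all eligible genes, so the 3 places have no background to be set against.

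At the edge of the rule, the 3 higher genes just inside were AT5G44530, a subtilase gene, AT1G74470, for geranylgeranyl reductase of chlorophyll and tocopherol synthesis, and UGT74D1, for a glucosyltransferase that acts on auxin. Their weakest ratios were 1.506, 1.51 and 1.51. Just outside were AT5G57345, AT5G66590 and AT1G72730, with 1.49, 1.489 and 1.486. On the lower side AT5G51570, AT1G15740 and AT3G22240 were just inside, with 0.6665, 0.663 and 0.662, and AT1G03400, MCCA and AT1G33590 just outside, with 0.669, 0.670 and 0.671. AT1G15740 was the most even named member, at 1151, 1141 and 1141 on number 2 in vip5, vip6 and WT, and 1758, 1721 and 1739 on number 1.

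The brightest decile held more of the higher members than any other, but most of them were not in it. Their median intensity was 505, against 501 over all eligible transcripts. Of the 59, 18 lay in the brightest decile of eligible transcripts and 0 and 1 in the deciles 8 and 9 (10 being the brightest), whereas the lower members numbered between 5 and 26 in each decile. In the brightest decile the median ratio over all transcripts was 1.16 in vip5, 1.13 in vip6 and 1.08 in WT. Of these 18, 2 name 1 gene and 1 names several. The 2 are atpB, for a subunit of the plastid ATP synthase, with 52533, 43396 and 39128 on number 2 and 27566, 24378 and 25692 on number 1, and AT1G74470. AT1G74470 read 26847, 24250 and 20225 on number 2 in vip5, vip6 and WT, and 13946, 14330 and 13386 on number 1. After quantile normalization 3 higher members lay in that decile and after cyclic loess 2, against 18 in the deposited values. The mean log2 ratio of AT1G74470 was then 0.32 and 0.41, against 0.77, so the number of bright higher members depended on how the arrays were scaled. The lower members in that decile numbered 19, and 23 and 22 after the 2 normalizations.

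**Figure D4:**
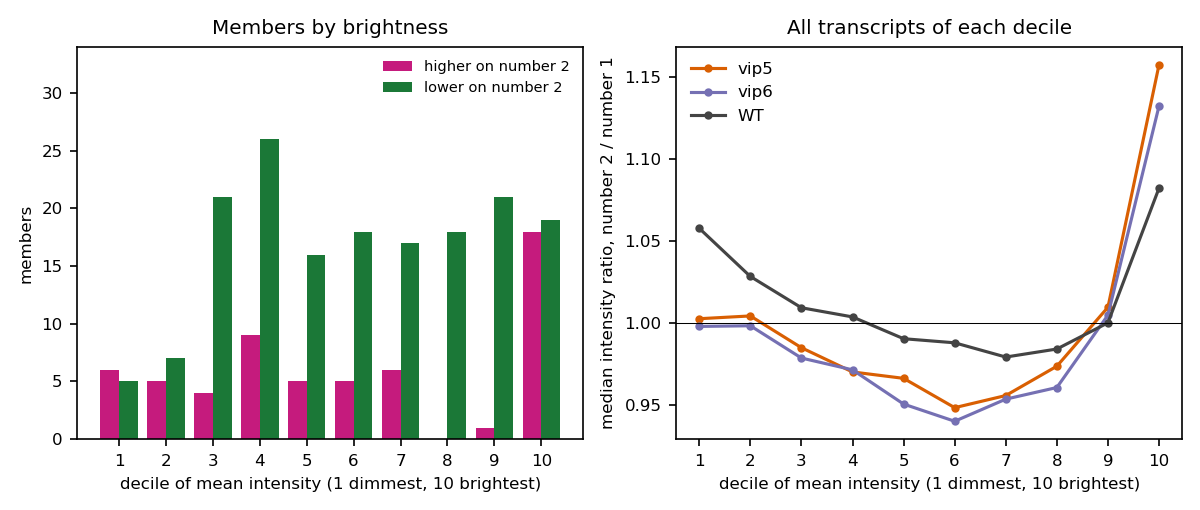
Left, number of members higher and lower on number 2 in each decile of mean intensity over 12530 eligible transcripts. Right, the median ratio of number 2 to number 1 over all transcripts of a decile in each genotype, which reaches 1.16 in vip5 and 1.08 in WT in the brightest decile.

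Values of the arrays themselves also differed by number. The 18 probe sets for bacterial and phage RNAs that are added to each sample as controls were higher on number 2 in every genotype, by 2.45 to 7.06 times in vip5, 1.76 to 3.95 times in vip6 and 1.40 to 2.17 times in WT. The 99th percentile of intensity was 9621 to 10771 on number 2 and 8784 to 9218 on number 1. The ratio of 3′ to 5′ signal, a sign of RNA integrity, was 1.29 to 1.54 for actin on number 2 and 1.37 to 1.87 on number 1 with the newer control pair, and 8.48 to 13.9 and 8.87 to 15.9 with the older pair. For GAPDH it was 0.747 to 0.915 and 0.913 to 1.16 with the newer pair, and 1.04 to 1.27 and 1.18 to 1.75 with the older. The top value of every pair was that of WT on number 1, and the genotypes did not all go one way. With the newer actin pair vip5 had 1.54 on number 2 and 1.37 on number 1, vip6 1.48 and 1.62, and WT 1.29 and 1.87. Of the markers of other tissues, the root genes PYK10, NAI2 and EXP7 and the flower gene A9 are named, and none is a member. PYK10 had ratios of 0.677, 1.21 and 0.991 in vip5, vip6 and WT, and EXP7 had at most 51.1 on any array. No leaf, pollen or seed marker is paired with a probe set here. The part of these controls and markers in the members' ratios was not tested, and what the numbers stand for cannot be told apart from them.

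The contrast of genotypes was not used to choose the members and was tested with limma over 14323 transcripts, which include all 227. Without the number in the model, 0 members passed an adjusted p of 0.05 in vip5 against WT, where 0.0768% of all transcripts did, and 0 in vip6 against WT, where 0.105% did. At an unadjusted p below 0.05 there were 11 members in vip5, where 10.9% of all transcripts were, and 9 in vip6, where 9.88% were, and the lowest adjusted p of a member was 0.181 and 0.245. This fit counts the difference between the numbers as spread, and the members were selected on that difference. Their median residual SD was 0.66 on the log2 scale, against 0.21 over all tested. Between vip6 and vip5, 0 members and 0 of all transcripts passed, and 0 members had an unadjusted p below 0.05, where 1.54% of all did. The median log2 difference was 0.01 over the members and -0.0078 over all tested.

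With the number as a block the median residual SD was 0.15 for members and 0.16 for all. Then 23 members passed in vip5 against WT, 2 higher and 21 lower, where 2.19% of all transcripts passed. In vip6 against WT 16 passed, 3 higher and 13 lower, where 1.77% passed. These backgrounds include dimmer transcripts, and the rule also bears on this residual, so nothing is read from members against background. Both mutants passed together in 14 members, 2 of them higher, where 0.552% of all transcripts were, and 12 lower, where 0.761% were. Between vip6 and vip5, 0 members passed under the block, where 0.00698% of all transcripts did. An unadjusted limma p below 0.05 was found there in 15 members and in 511 of the 14323 transcripts tested. The labels do not establish that the number pairs the arrays, and both comparisons share the WT arrays. With 1 array left out, the count of members under the block changed with the array. It was largest and smallest in the same fits as the count over all transcripts. Such a fit leaves 1 array in a group, so nothing is read from these counts about the members.

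AT1G19960 had the lowest level relative to WT of all named members. It read 394 ± 316 in vip5 and 382 ± 346 in vip6, against 2106 ± 674 in WT (SD, n = 2 each). The log2 difference was -2.49 in vip5 and -2.61 in vip6, with adjusted p = 0.261 and 0.256 in limma without the block and 0.00692 and 0.0065 with it. On number 2 its intensity was 0.105 times that of WT in vip5 and 0.0842 times in vip6, and on number 1 it was 0.239 and 0.242 times. All 4 mutant arrays lay below both WT arrays.

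COR15B averaged 389 ± 236 in vip5 and 484 ± 302 in vip6, against 1153 ± 479 in WT (SD, n = 2 each), log2 differences of -1.53 and -1.26 with limma adjusted p = 0.00746 and 0.0152 under the block, and 0.362 and 0.49 without it. AT1G64360 averaged 232 ± 70.3 in vip5 and 274 ± 82.6 in vip6, against 716 ± 276 in WT (SD, n = 2 each). Its log2 differences were -1.45 and -1.25, with limma adjusted p = 0.00746 and 0.0136 under the block and 0.181 and 0.254 without it. AT1G76240, higher on number 2, averaged 250 ± 136 in vip5 and 262 ± 156 in vip6, against 707 ± 456 in WT (SD, n = 2 each), log2 differences of -1.30 and -1.26 with limma adjusted p = 0.0122 and 0.0137 under the block. AT1G21670 averaged 260 ± 131 in vip5 and 279 ± 162 in vip6, against 548 ± 209 in WT (SD, n = 2 each), log2 differences of -0.998 and -0.93 with limma adjusted p = 0.027 and 0.0358 under the block. These 5 genes passed in both mutants under the block and in neither without it, and in each of them all 4 mutant arrays were below both WT arrays.

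AT4G02370, AT2G15960 and AT1G25275 passed under the block in vip5, with log2 differences of -0.87, -0.98 and -0.91, and in vip6 had -0.30, -0.70 and -0.72, which did not pass. The difference between vip6 and vip5 did not pass for any of them. Of the 25 members that passed in either mutant under the block, these 8 name 1 gene. In all, 11 members had the 4 mutant arrays below both WT arrays, where 13.2% of tested transcripts did, and 1 had them above, where 12.5% did. The difference between the numbers, on which the members were selected, widens each group here.

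Highest relative to WT among named members were AT2G21130, AT3G59350, AT3G60420, AT3G50210 and AT5G42200, and none passed with or without the block. AT3G60420 averaged 554 ± 299 in vip5 and 612 ± 388 in vip6, against 347 ± 203 in WT (SD, n = 2 each), with log2 differences of 0.63 and 0.72 and limma adjusted p = 0.098 and 0.0731 under the block. AT2G21130 averaged 942 ± 897 in vip5 and 890 ± 870 in vip6, against 486 ± 298 in WT (SD, n = 2 each). Its difference in vip5 was 0.64, with a 95% interval of -1.43 to 2.71 without the block.

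Set against WT on the same number, both mutants had a ratio to WT at or below the same reciprocal in 42 members on number 2, where 5.21% of eligible transcripts did, and in 29 on number 1, where 4.17% did. They were at least 1.5 times WT in 8 members on number 2, where 4.81% were, and in 20 on number 1, where 3.5% were. Each of these counts rests on 1 WT array per number. A change of side, with both mutants below WT on number 2 and above it on number 1, was found in 25 members, where 12.4% of eligible transcripts had it, and the opposite in 11, where 9.7% had it. A change of side is built from the ratios that chose the members, so nothing is read from these 2 counts against their background.

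**Figure D5:**
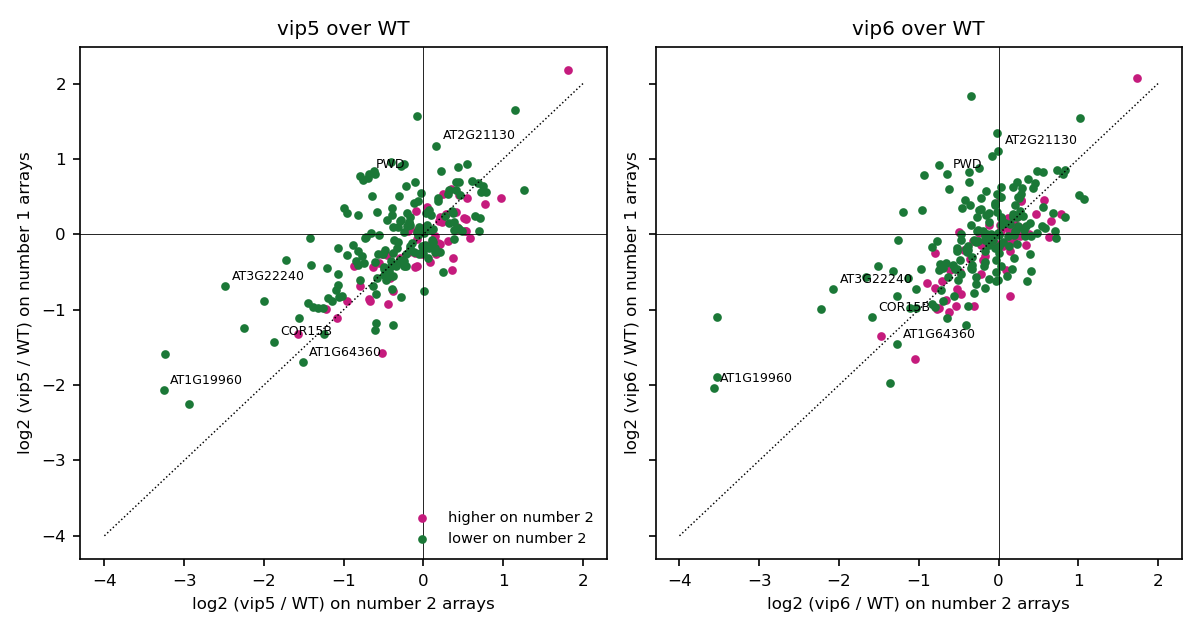
Log2 ratio of vip5 (left) and vip6 (right) to WT on number 2 arrays (horizontal) and on number 1 arrays (vertical), with 1 point per member and the dotted line where both are equal. AT1G19960 is low on both numbers, at 0.105 and 0.239 times WT in vip5, while PWD is below WT on number 2 (0.625 times) and above it on number 1 (1.74 times).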

How the data were processed

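Per the file headers, the authors deposited 1 table with a value per probe set for each of 6 arrays. The values behave as linear intensity, and the authors appear to have scaled them, since the mean without the lowest and highest 2% is about 500.05 on each array. No source used here names the software, and there are no detection calls. Genes were named through the platform annotation, updated to the TAIR10.1 gene table: 13513 probe sets name 1 gene, 503 several and 8730 none besides the controls. Of the 227 members, 111 name 1 gene. Ratios were taken from the deposited intensity.

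Genotypes were compared with limma 3.58.1 in R 4.3.3 on log2(intensity + 39.4) for the 14323 probe sets above the 40th percentile of their array on at least 2 arrays, with 3 group means, a threshold of 0.05 for two-sided p-values that were Benjamini-Hochberg adjusted over all of these. The model was tested on simulated data. Fold changes understate those of dim transcripts, the number of arrays limits precision, and p-values measure only the spread between arrays, which may be technical. The replicate number was a block in an alternative: with 2 numbers and silent labels no pairing is established.

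The members and lists were chosen with earlier results of these data known. Named genes were the 12 most extreme per direction by weakest ratio, list members, genes past a genotype test, the 5 highest and 5 lowest in the mutants, and those beside the ratio threshold. The AP2/ERF name pattern was corrected after its counts were seen, and then matched 0 genes. Alternatives covered normalization, minimum intensity, ratio, pseudocount, filter, variance trend, arrays in the fit, the block and each array left out.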

Additional observations from a re-analysis of the deposited data

Results flagged for a closer look

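In 4 members both mutants lay at least 1.5 times on one side of WT on one number and on the other side on the other number, a difference that was not tested. The limit of 1.5 was chosen after the values were seen, and how many of all eligible transcripts meet it was not counted. The values below, like the counts of a change of side of any size, are built from the ratios that chose the members, so they are a description only. PWD is the one with a gene name: the mean log2 ratio of the mutants to WT on number 2 minus that on number 1 was -1.46, from intensities of 444 in vip5 and 454 in vip6, against 711 in WT, on number 2, and 2391 and 2384, against 1375, on number 1. The same quantity was -1.56, -1.56 and -1.35 for the other 3 (-1.557, -1.563 and -1.351), which have no gene name here. The brightest of these, with the value of -1.35, read 1396 in vip5 and 1523 in vip6, against 2352 in WT, on number 2, and 7410 and 6863, against 4509, on number 1.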

How the results depend on the processing

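The 59 higher and 168 lower members became 50 and 150 after quantile normalization, of which 42 and 144 were the same, and 44 and 162 after cyclic loess, of which 40 and 151 were the same. With a minimum intensity of 50 there were 83 and 202, and with 200 there were 40 and 110. A ratio of 2 or 0.5 left 5 and 45. With the rule applied without vip5 there were 98 and 228, without vip6 107 and 269, and without WT 374 and 489. With the replicate block, 23 members passed in vip5 against WT and 16 in vip6, against 0 in both without it. Between vip6 and vip5 it changed no call of a member and called 1 of all transcripts, against 0. No other setting without the block brought a member past the threshold: normalization, pseudocount, filter, variance trend, arrays in the fit and each array left out all gave 0. With the block and 1 array left out, 0 to 42 passed in vip5 and 4 to 37 in vip6, and over all transcripts 9 to 1230 and 48 to 1109. A fit with 1 array in a group assumes that it varies like the other groups. For vip5 these were 42 without WT replicate 1 and 38 without WT replicate 2, and for vip6 37 and 28, 10 and 7 without vip5 replicates 2 and 1, and 4 and 5 without vip6 replicates 2 and 1. The number ratio of the 41 named genes reversed under no normalization. With 1 array left out and no block, log2 differences changed sign within these ranges: AT2G21130 -0.47 to 1.75 in vip5 and -0.62 to 1.68 in vip6, AT3G59350 -0.076 to 1.38 and -0.34 to 1.15, AT3G50210 -0.036 to 0.86 in vip5, AT4G02370 -0.80 to 0.20, AT2G15960 -1.40 to 0.0055 and AT5G42200 -0.10 to 0.91 in vip6. The cause was not tested.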

Other observations

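Genes of the lists that were no members followed several patterns by number, with no test. SBPASE, an enzyme of the Calvin cycle, read 21667 in vip5, 19319 in vip6 and 12898 in WT on number 2, and 12289, 11401 and 12729 on number 1, ratios of 1.76, 1.69 and 1.01. STZ, a zinc finger gene of rapid stress responses, had ratios of 1.33 in vip5, 1.95 in vip6 and 0.562 in WT. EXPA8, an expansin gene, had 1.05, 1.2 and 1.84. BCAT4, of methionine-derived glucosinolate synthesis, had 1.01, 1.02 and 1.19. The reference genes TIP41L, SAND and UBC21 had ratios between 0.749 and 1.18 in every genotype.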
